A study of Homo sapiens with 10 samples.

Results

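The ZNF genes of chromosome 19 were taken as all genes with an NCBI gene identifier, a symbol made of ZNF and a number, with or without 1 further letter, and a position on chromosome 19 of GRCh38. The annotation holds 263 such genes, and 202 of them were among the 13920 genes of the deposited count table, which lists no gene with a count of 0 in any library. The RNA came from spheroids labelled T47D, a human breast cancer cell line of luminal type. There were 10 libraries: 4 of wild-type (WT) cells, 4 of the SAMHD1 knock-out (KO) clone A1 and 2 of the KO clone A2. WT and A1 were sequenced in experiments 10, 11, 15 and 16, and A2 in experiments 15 and 16, which gave 5 groups of 2 libraries. SAMHD1 encodes a deoxynucleotide triphosphohydrolase, and the study disrupted its exon 5 with a plasmid carrying CRISPR-Cas9. Each KO line is 1 clone, so a difference between a clone and WT cannot be told apart from variation among single cells of the parental line. The labels do not say how experiments 10 and 11 differed from 15 and 16, and what differed between the pairs cannot be told apart from the pair itself.

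Most ZNF genes of chromosome 19 encode proteins with an array of C2H2 zinc fingers, which bind DNA, and many carry a KRAB box, which recruits the co-repressor TRIM28 (KAP1). TRIM28 brings in the histone methyltransferase SETDB1, heterochromatin proteins of the CBX family and the DNA methylation machinery, and many of these factors silence retrotransposons. The genes arose by tandem duplication and stand in clusters of near relatives, which are themselves covered by repressive chromatin and are mostly expressed at low levels.

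Counts were given as CPM, a gene's count divided by the library's TMM-scaled total and multiplied by a constant. SAMHD1 was lower in every KO library, at 22.5 and 23.0 CPM in A1 of experiments 10 and 11, 6.44 and 6.15 CPM in A1 of experiments 15 and 16, and 23.6 and 20.2 CPM in A2, against 49.8 to 56.4 CPM in WT. Library totals ranged from 40077369 to 51311482 counts, so 0.25 CPM stood for 9.92 to 12.8 counts and 1 CPM for 39.7 to 51.3. The markers went only in part with the labelled cell type. Of 9 luminal markers 8 were listed and KRT19 was not, and their summed level was 102 to 130 CPM. The oestrogen receptor gene ESR1 lay at 0.183 to 1.59 CPM, EPCAM at 0.348 to 1.78 CPM, CDH1 at 0.684 to 2.16 CPM and KRT8 at 3.10 to 9.07 CPM. The other 4 were higher, with PGR at 15.4 to 20.7 CPM, GATA3 at 15.4 to 24.8 CPM, FOXA1 at 14.1 to 26.8 CPM and KRT18 at 36.3 to 60.3 CPM. VIM, the gene of the mesenchymal filament vimentin, lay at 1175 to 1518 CPM and ZEB1, a repressor of epithelial genes, at 57.6 to 70.4 CPM. Of 4 blood cell markers 2 were listed, at a summed 0.759 to 1.74 CPM, and of 5 fibroblast and endothelial markers 2 were listed, at 7.13 to 12.7 CPM. These ranges are over all 10 libraries, the part of cell identity in the results was not tested, and the cells are called by their label. The labels do not say whether libraries of a group came from separate cultures, while the methods of the study speak of biological duplicates, so p-values measure the spread between these libraries. In bulk RNA, fewer expressing cells and less RNA per cell cannot be told apart.

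The annotated genes formed 17 clusters when a gap of over 1 Mb between genes ended a cluster, and 15 of them held listed genes. Cluster 17 at the end of the long arm (55.48 to 58.49 Mb) held 52 of the 202 genes, cluster 16 (51.57 to 53.58 Mb) 31, cluster 10 (36.18 to 37.78 Mb) 27, cluster 13 (43.53 to 45.08 Mb) 24 and cluster 6, which spans the centromere side of the short arm (19.67 to 24.13 Mb), 21. Cluster 3 (11.48 to 12.63 Mb) held 16 and cluster 2 (7.07 to 9.79 Mb) 13. Listing was uneven: all 27 annotated genes of cluster 10 and all 24 of cluster 13 had counts in every library, against 21 of 42 in cluster 6 and 31 of 43 in cluster 16. The median level of a gene over the libraries ranged from 0.244 to 138 CPM, with a median of 8.95 CPM, and 11 of the 202 genes had a count under 10 in at least 1 library.

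Large differences between the 5 groups were more frequent among the ZNF genes of chromosome 19 of low level than among all genes of that level, which is given as a description with no test. The ratio of the highest to the lowest group mean was at least 4 in 15 of the 202 genes (7.43%), against 244 of all 13920 genes (1.75%), 2 of 230 ZNF genes on other chromosomes (0.870%) and 14 of 768 other genes of chromosome 19 (1.82%). A ratio of at least 2 was seen in 35 of the 202 (17.3%) and in 10.2% of all genes. The median ratio was 1.38 for the 202, 1.28 for all genes and 1.46 for the other genes of chromosome 19. Low counts widen such ratios, and the chromosome 19 genes were expressed at lower levels, with a median highest group mean of 10.2 CPM against 32.4 CPM for all genes. Among genes with a highest group mean of 2 to 5 CPM, 11 of 36 chromosome 19 ZNF genes (30.6%) had a ratio of at least 4, against 74 of 964 genes in all (7.68%). Among those at 5 to 10 CPM the share was 2 of 52 (3.85%) against 2.57%, and their median ratio of 1.39 lay below the 1.41 of all genes at that level. Among the 106 with a highest mean of 10 CPM or more 0 had such a ratio, against 0.342% of all genes. Of the 15 genes, 5 lay in cluster 6, 5 in cluster 16, 2 each in clusters 10 and 13, and 1 in cluster 3. Cluster 17, the largest, held 0. Just inside the threshold was ZNF233 with a ratio of 4.87, and just outside it the pseudogene ZNF56P with 3.93. A2 was the group with the highest mean for 11 of the 15 genes. A1 of experiments 10 and 11 was the group with the lowest for 7. Over all 202 genes A2 was highest for 66 and lowest for 47. For A1 of experiments 10 and 11 these numbers were 55 and 34.

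**Figure D1:**
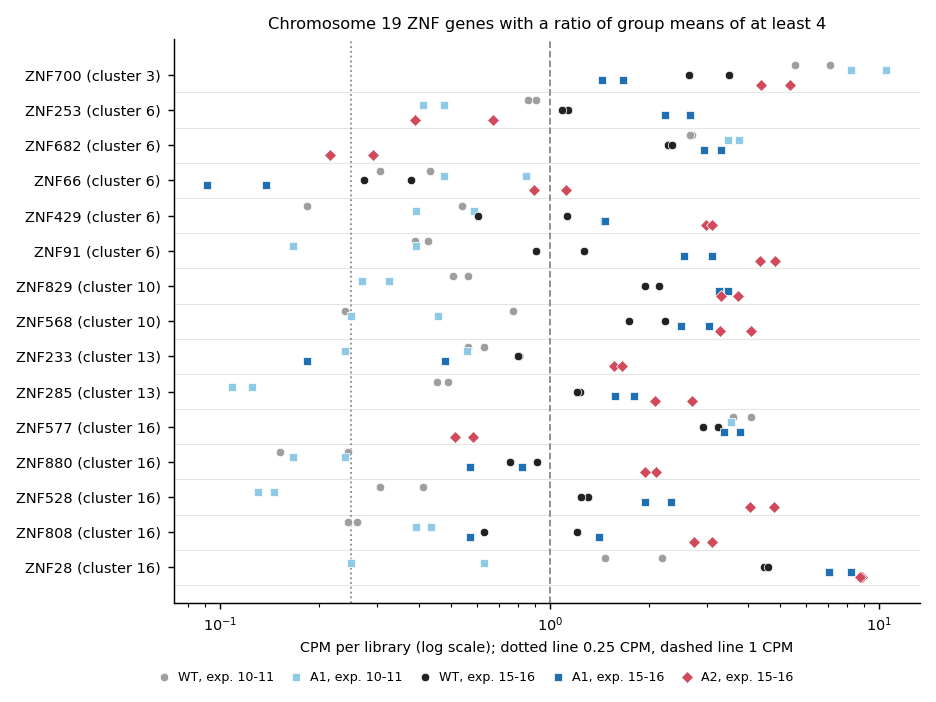
Level of the 15 genes with a ratio of group means of at least 4, 1 point per library, on a logarithmic CPM axis; genes are in chromosomal order with their cluster number, and colours give genotype and experiment pair. ZNF528, ZNF285 and ZNF880 cross from under 0.25 CPM (dotted line) to over 1 CPM (dashed line), and ZNF682 and ZNF577 stand apart in A2 alone.

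The number of genes that passed the test (edgeR quasi-likelihood test, Benjamini-Hochberg adjusted p under 0.05 over all genes) differed widely between comparisons, and the count among the 202 is given beside the share of all genes called higher and lower. In A1 against WT of experiments 15 and 16, 10 of the 202 were higher and 4 lower, with 3.95% and 4.29% of all genes called. In A2 against WT of the same experiments, 32 were higher and 16 lower, with 7.33% and 9.07% of all genes called. Thus 15.8% of the chromosome 19 ZNF genes were higher in A2, while the share called lower, 7.92%, was near that of all genes. In A1 against WT of experiments 10 and 11, 3 were higher and 1 lower, with 0.0287% and 0.165% of all genes called. A2 against A1 gave 12 higher and 4 lower, with 1.07% and 3.07% of all genes called. The effect of A1 changed between the pairs in 7 genes, upward in 6 and downward in 1, with 1.56% and 0.941% of all genes called. Between pairs, WT of experiments 15 and 16 had 18 genes higher and 16 lower than WT of 10 and 11, with 8.61% and 7.74% of all genes called, shares near those of the 202. For A1 the same step gave 26 higher (12.9%) and 57 lower (28.2%), with 20.4% and 19% of all genes called. The mean of both clones against WT in experiments 15 and 16 gave 22 higher and 16 lower, with 6.93% and 8.63% of all genes called. In all, 94 of the 202 genes were called in none of the 8 comparisons, and no share of all genes was taken beside this count. A1 and A2 of experiments 15 and 16 share their WT libraries, so their counts are not independent of each other.

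Single libraries decided many of these counts. The counts under changed fits are of the 202 genes alone, with no share of all genes beside them, and are not a result particular to the ZNF genes. For A1 against WT in experiments 15 and 16 the 14 calls became 1 without WT of experiment 15, 6 without WT of 16, 4 without A1 of 15, 1 without A1 of 16, and 33 without WT of 10 or of 11. The split of the 14 calls into 10 higher and 4 lower did not hold in those last fits. Nor did it hold with experiments 15 and 16 alone, with 14 higher and 13 lower. Over all 202 genes of the main fit, 72 had a positive and 130 a negative log2 fold change. The 48 calls of A2 against WT became 22 without WT of 15, 28 without WT of 16 and 24 without A2 of 16. The 4 calls of A1 against WT in experiments 10 and 11 became 19 without WT of 10, 2 without WT of 11, 2 without A1 of 11 and 0 without A1 of 10, where 22 genes had an unadjusted p under 0.05 (all libraries gave 4 calls with DESeq2 and 5 with limma-trend). The 16 calls of A2 against A1 became 10 without A1 of 16 and 25 without WT of 11. The 7 changes of the A1 effect became 19 without WT of 10, 1 without A1 of 10, 3 without A1 of 11, 4 without WT of 15, 2 without WT of 16 and 2 without A1 of 15. Without WT of 10 the balance turned to 7 upward and 12 downward. The 34 calls between the WT pairs became 11 without WT of 16, and the 38 of both clones became 10 without WT of 15, 19 without WT of 16 and 24 without A2 of 16. Without WT of 10 the 38 became 54, with 27 in each direction.

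The rest of the chromosome is given beside these counts, with no test of the difference. The 768 other listed genes of chromosome 19 had a median log2 fold change of −0.21 in A1 and −0.18 in A2 against WT (experiments 15 and 16), with 168 and 193 called lower and 7 called higher in each. For the 202 ZNF genes the medians were −0.10 and −0.01, and over all genes 0.00 and 0.01. Between the WT pairs the other genes of the chromosome had a median of −0.22 with 241 lower and 11 higher, against −0.02 for the ZNF genes, and between the A1 pairs −0.31 with 402 lower and 59 higher, against −0.11. ZNF genes on other chromosomes (230 genes) had medians of 0.03 in A1, with 6 higher and 5 lower, and 0.05 in A2, with 27 higher and 7 lower. Why the other genes of the chromosome moved down was not tested, and it stands beside the 57 ZNF genes called lower between the A1 pairs.

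**Figure D2:**
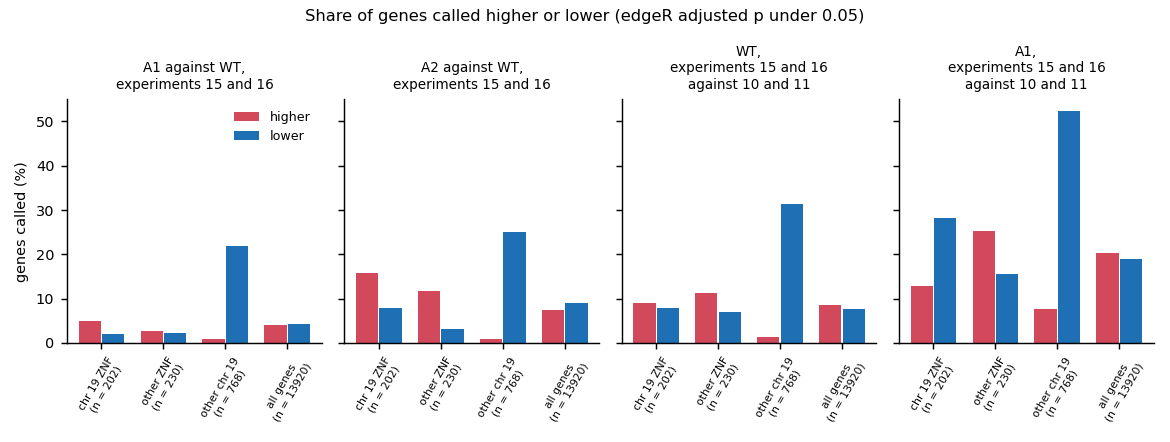
Percentage of genes called higher and lower (edgeR, adjusted p under 0.05) in 4 lists and 4 comparisons, as bars from 0, with the number of genes under each pair. Of the other genes of chromosome 19, 21.9% (A1) and 25.1% (A2) were called lower, and of its ZNF genes 1.98% and 7.92%, against WT in experiments 15 and 16.

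The calls are given by cluster as a description, with no test of position, and are to be read against 7.33% of all genes called higher and 9.07% lower in A2, and 3.95% and 4.29% in A1 of experiments 15 and 16. In A2 against WT, cluster 16 held 12 of the 32 genes called higher and 3 of the 16 called lower, among its 31 genes, and cluster 6 held 7 and 4 among its 21. Cluster 3 held 5 and 0 among its 16, and 9 of the 16 genes called lower lay outside clusters 6 and 16. Cluster 17, with 52 genes, held 6 and 2, and cluster 13, with 24, held 1 and 0. In A1 against WT of experiments 15 and 16, 6 of the 10 genes called higher lay in cluster 6 and 2 in cluster 16. In A1 against WT of experiments 10 and 11, all 4 calls lay in cluster 16. The listed genes inside these spans that were no members of the set were read beside them: the 2 in cluster 16 had a median log2 fold change of −0.35 in A2 with 1 called lower, and the 1 in cluster 6 had −0.07.

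**Figure D3:**
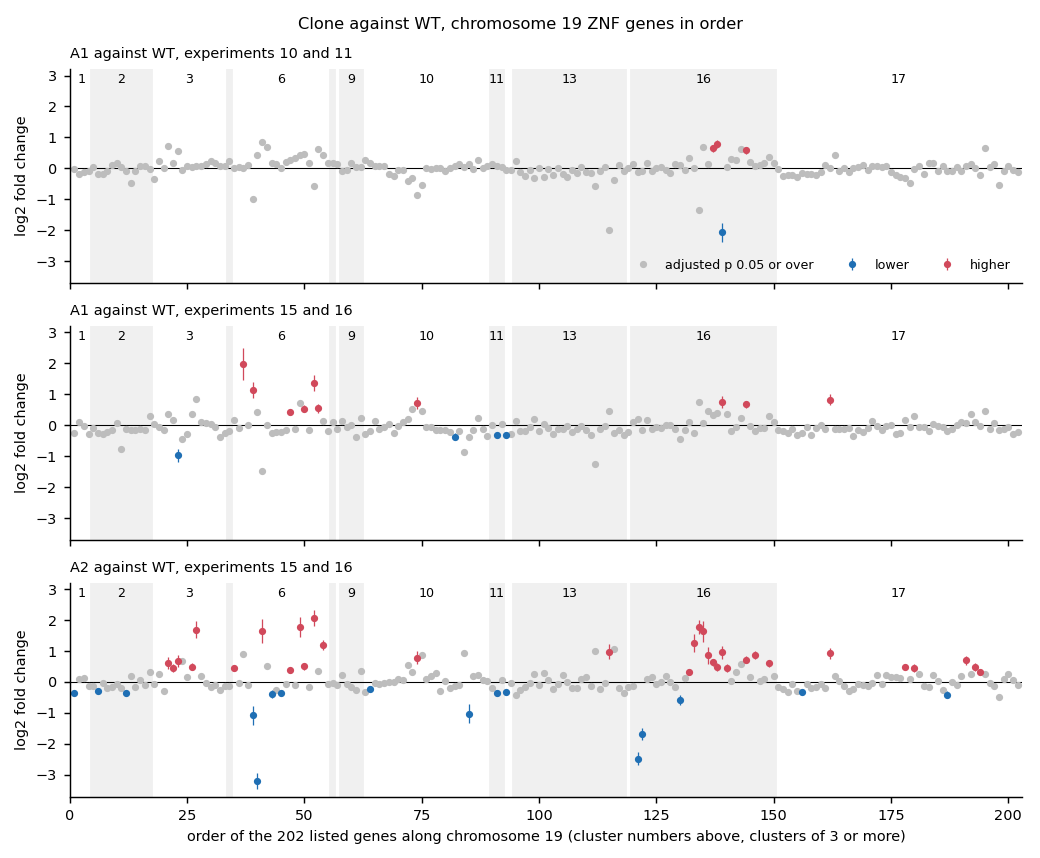
Log2 fold change of each clone against WT for the 202 genes in their order along chromosome 19, with shaded bands and numbers for the clusters; coloured points passed the test and carry their standard error. In A2 (bottom) a run of 9 neighbours in cluster 16 lies above 0, while pairs of neighbours in clusters 6 and 16 lie below it.

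ZNF528, ZNF880 and ZNF285 met the rule for a switch, both libraries of 1 group at or under 0.25 CPM and both of another at or over 1 CPM, 3 of 202 genes against 14 among all 13920 genes. The number was 3 with RLE size factors, 8 with limits of 0.5 and 2 CPM, 0 with a lower limit of 0.1 CPM, 7 without A1 of experiment 11 and 5 without WT of experiment 10. The bases before their starts are shown because these genes cross between low and expressed. They are the RefSeq promoter entries on GRCh38.p14, read on the gene's strand, and capitals mark CG, the dinucleotide that DNA methyltransferases modify. ZNF528 (plus strand) is given for 180 bases, chr19:52397669-52397848, since ZNF880 reaches into the bases before that. ZNF880 (plus) is at chr19:52369673-52369922, before the start of its GENCODE canonical transcript and inside its RefSeq gene record, which begins at 52366858, and ZNF285 (minus) at chr19:44401609-44401858.
ZNF528: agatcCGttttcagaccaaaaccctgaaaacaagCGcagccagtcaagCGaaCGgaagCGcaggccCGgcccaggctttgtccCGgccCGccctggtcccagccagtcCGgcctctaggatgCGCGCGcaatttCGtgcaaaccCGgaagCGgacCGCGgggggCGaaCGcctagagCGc
ZNF880: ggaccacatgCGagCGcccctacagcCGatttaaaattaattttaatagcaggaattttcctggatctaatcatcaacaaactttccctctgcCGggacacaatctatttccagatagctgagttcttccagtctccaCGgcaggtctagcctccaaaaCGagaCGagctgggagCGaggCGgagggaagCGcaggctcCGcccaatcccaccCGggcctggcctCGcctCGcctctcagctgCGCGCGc
ZNF285: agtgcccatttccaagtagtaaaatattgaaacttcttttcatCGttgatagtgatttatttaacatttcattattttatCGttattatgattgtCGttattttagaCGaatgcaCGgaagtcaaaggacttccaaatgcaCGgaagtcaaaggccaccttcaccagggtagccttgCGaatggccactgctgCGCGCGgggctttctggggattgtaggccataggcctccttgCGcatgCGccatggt

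ZNF528 and ZNF880 are neighbours in cluster 16 and both carry a KRAB box match in the protein. ZNF528 lay at 0.412 and 0.306 CPM in WT of experiments 10 and 11, at 0.145 and 0.131 CPM in A1 of the same experiments (7 and 6 counts), at 1.31 and 1.25 CPM in WT of 15 and 16, at 2.33 and 1.95 CPM in A1 and at 4.80 and 4.06 CPM in A2. The 5 groups did not overlap, and the ratio of the highest to the lowest mean, 32.1, was the largest among the 202 genes. Against WT of the same experiments A2 was higher by 1.79 ± 0.23 on the log2 scale (SE, n = 2 libraries each, edgeR adjusted p = 6.34e-05), and A1 by 0.74 ± 0.24, which missed the threshold (edgeR adjusted p = 0.0634) but passed with experiments 15 and 16 alone and without WT of 10 or of 11. In WT the step between the pairs was 1.83 ± 0.29 (edgeR adjusted p = 0.000749) and in A1 3.93 ± 0.33 (edgeR adjusted p = 2.21e-07), and the A1 effect differed between the pairs by 2.10 ± 0.48 (edgeR adjusted p = 0.0292). That difference missed the threshold without any 1 of WT of experiments 10, 15 and 16 and A1 of 10, 11 and 15 (edgeR adjusted p up to 0.140).

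ZNF880 lay at 0.152 and 0.245 CPM in WT and 0.166 and 0.239 CPM in A1 of experiments 10 and 11, so both genotypes were low together. In experiments 15 and 16 it lay at 0.756 and 0.916 CPM in WT, 0.822 and 0.574 CPM in A1 and 2.11 and 1.95 CPM in A2. Thus WT and A1 overlapped in both pairs and A2 stood above them, by 1.27 ± 0.28 against WT (edgeR adjusted p = 0.00554, lost with DESeq2 and without WT of experiment 15). The WT step between the pairs was 2.06 ± 0.39 (edgeR adjusted p = 0.00216).

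ZNF285 stands in cluster 13, away from the others, between ZNF112 and ZNF229, whose ratios of group means were 1.03 and 3.36. It lay at 0.455 and 0.490 CPM in WT and 0.124 and 0.109 CPM in A1 of experiments 10 and 11 (6 and 5 counts in A1). In experiments 15 and 16 it lay at 1.24 and 1.21 CPM in WT, 1.80 and 1.58 CPM in A1 and 2.09 and 2.71 CPM in A2. As with ZNF528, A1 was the lowest group in the first pair and above WT in the second, and the A1 effect changed by 2.46 ± 0.50 (edgeR adjusted p = 0.0143, lost without A1 of 10, 11 or 15 or WT of 16, at up to 0.0852). A2 was higher than WT by 0.98 ± 0.24 (edgeR adjusted p = 0.0113, lost without WT of 15, WT of 16 or A2 of 16, at up to 0.155), and neither A1 effect on its own passed (edgeR adjusted p = 0.285 in experiments 15 and 16, and 0.0858 in 10 and 11, where it passed with limma-trend and without WT of 10).

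In cluster 16 a run of 9 listed neighbours was higher in A2 than in WT over 0.56 Mb. In A1 of the same experiments every gene of the run but ZNF880 (−0.27) also lay above WT, by 0.09 to 0.75, and only ZNF28 passed. A2 against A1 passed for ZNF880, ZNF528 and ZNF808 and for no other gene of the run. The run held ZNF480, ZNF880, ZNF528, ZNF808, ZNF701, ZNF83, ZNF611, ZNF28 and ZNF468, with log2 fold changes of 0.33 to 1.79 in A2 against WT. All 9 kept this sign when each library was left out in turn, but the number called fell to 4 without WT of experiment 15, 5 without WT of 16 and 6 without either A2 library. ZNF808, a repressor of MER11 retroviral elements that is needed for development of the human pancreas, lay at 0.260 and 0.245 CPM in WT and 0.435 and 0.392 CPM in A1 of experiments 10 and 11. In experiments 15 and 16 it lay at 0.630 and 1.21 CPM in WT, 1.42 and 0.574 CPM in A1 and 3.12 and 2.73 CPM in A2. A2 stood apart and WT and A1 overlapped, and A2 was above WT by 1.64 ± 0.34 on the log2 scale (edgeR adjusted p = 0.00358, and 0.0591 without WT of experiment 15).

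ZNF28 showed the largest change of the A1 effect among the 202 genes. It lay at 2.19 and 1.47 CPM in WT and 0.249 and 0.631 CPM in A1 of experiments 10 and 11, which differed by −2.06 ± 0.30 on the log2 scale (edgeR adjusted p = 0.00485, and 0.160 without A1 of experiment 10). Experiments 15 and 16 gave 4.49 and 4.60 CPM in WT, 8.20 and 7.04 CPM in A1 and 8.90 and 8.73 CPM in A2. A1 had turned from below to above WT, by 0.75 ± 0.20 (edgeR adjusted p = 0.0293). This call was lost with limma-trend and without any 1 of the WT and A1 libraries of that pair. The change of 2.80 ± 0.37 (edgeR adjusted p = 0.000494) passed under every alternative that was run, at sizes of 2.27 to 3.61.

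ZNF83 and ZNF611, the listed genes before ZNF28, moved the other way in A1 of experiments 10 and 11. ZNF83 rose in A1 of that pair by 0.66 ± 0.11 (edgeR adjusted p = 0.0177), from 19.8 and 15.6 CPM in WT to 29.7 and 25.9 CPM. ZNF611, next to it, rose by 0.78 ± 0.13 (edgeR adjusted p = 0.0141), from 5.55 and 6.20 to 9.72 and 10.5 CPM, and ZNF160 by 0.59 ± 0.11 (edgeR adjusted p = 0.0308), from 6.83 and 6.51 to 10.1 and 9.94 CPM. Within the cluster 3 genes were called higher and 1 lower in this comparison. Each of these calls was lost without A1 of experiment 10, that of ZNF83 also without WT of 11, that of ZNF611 without A1 of 11, and that of ZNF160 in 7 of its alternatives. ZNF160 was the only one of the 4 that kept the same direction and passed in A1 (0.67 ± 0.11, edgeR adjusted p = 0.000972) and in A2 (0.72 ± 0.11, edgeR adjusted p = 0.000214) of experiments 15 and 16 at a nearly equal size, at 12.1 and 11.7 CPM in A1 and 12.3 and 12.3 CPM in A2 against 7.11 and 7.76 CPM in WT.

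**Figure D4:**
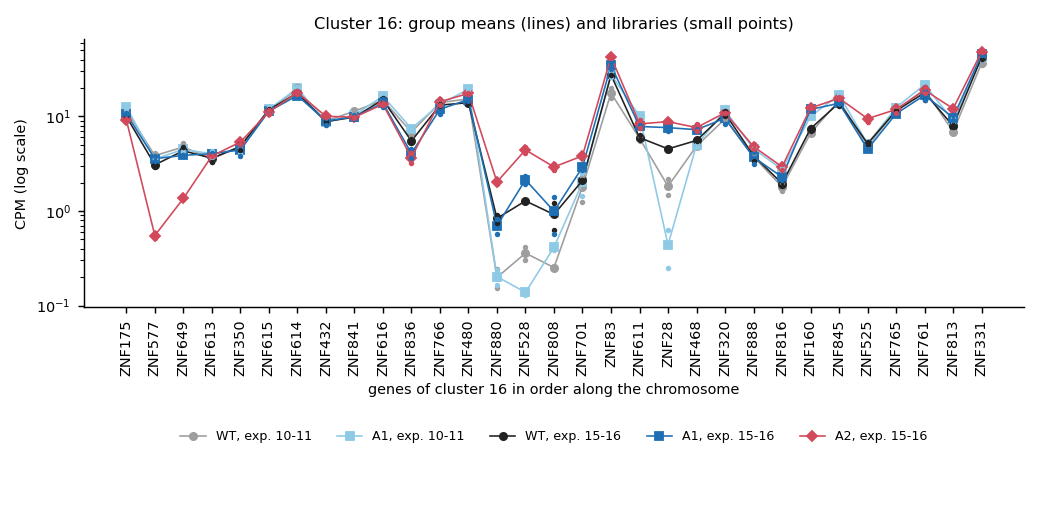
Level of the 31 listed genes of cluster 16 in chromosomal order on a logarithmic CPM axis, with lines through the group means and small points for the libraries. The groups part at ZNF880, ZNF528 and ZNF808 and at ZNF28, and A2 drops away at ZNF577 and ZNF649, while genes such as ZNF614 lie together.

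ZNF682, ZNF577 and ZNF649 were lower in A2 than in both WT and A1. ZNF682 (cluster 6) lay at 2.71 and 2.67 CPM in WT and 3.48 and 3.76 CPM in A1 of experiments 10 and 11, at 2.29 and 2.36 CPM in WT and 3.31 and 2.94 CPM in A1 of experiments 15 and 16, and at 0.292 and 0.215 CPM in A2. The 8 WT and A1 libraries stayed within 2.29 to 3.76 CPM and both A2 libraries lay far below them, with log2 fold changes of −3.20 ± 0.26 against WT (edgeR adjusted p = 1.10e-06) and −3.62 ± 0.26 against A1 (edgeR adjusted p = 2.53e-07). ZNF577, at the start of cluster 16, lay between 2.92 and 4.10 CPM in the 8 WT and A1 libraries and at 0.516 and 0.586 CPM in A2, which was lower than WT by −2.48 ± 0.22 on the log2 scale (edgeR adjusted p = 2.18e-06). The next listed gene, ZNF649, lay between 3.84 and 5.23 CPM in WT and A1 and at 1.37 and 1.35 CPM in A2, with −1.67 ± 0.19 (edgeR adjusted p = 2.42e-05). For these 3 genes the A2 groups did not overlap with any other group, and each call passed under every alternative that was run. Directly before ZNF577 lies SPACA6, with a ratio of group means of 1.54 and a log2 fold change of −0.47 in A2 that missed the threshold (edgeR adjusted p = 0.0758). The nearest ZNF genes, ZNF175 before the pair and ZNF613 after it, had ratios of 1.37 and 1.13, and ZNF506, on the near side of ZNF253 and ZNF682, 1.20.

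The promoter bases of ZNF682 (minus strand, chr19:20039506-20039755) and ZNF577 (minus, chr19:51887952-51888201) are shown beside those of ZNF66 (plus, chr19:20776054-20776303), the listed gene that follows ZNF682 and was highest in A2. ZNF682 and ZNF66 hold 8 CG each and ZNF577 holds 17.
ZNF682: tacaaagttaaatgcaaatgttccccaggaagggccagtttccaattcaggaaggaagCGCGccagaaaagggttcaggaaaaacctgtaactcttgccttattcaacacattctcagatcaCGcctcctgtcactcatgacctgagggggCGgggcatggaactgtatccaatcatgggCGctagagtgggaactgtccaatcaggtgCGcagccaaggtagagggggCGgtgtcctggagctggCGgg
ZNF577: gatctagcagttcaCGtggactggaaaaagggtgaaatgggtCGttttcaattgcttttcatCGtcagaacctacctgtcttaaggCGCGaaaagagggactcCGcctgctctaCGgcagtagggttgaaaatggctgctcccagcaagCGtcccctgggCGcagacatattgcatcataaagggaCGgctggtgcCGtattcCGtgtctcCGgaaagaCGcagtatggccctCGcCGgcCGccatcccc
ZNF66: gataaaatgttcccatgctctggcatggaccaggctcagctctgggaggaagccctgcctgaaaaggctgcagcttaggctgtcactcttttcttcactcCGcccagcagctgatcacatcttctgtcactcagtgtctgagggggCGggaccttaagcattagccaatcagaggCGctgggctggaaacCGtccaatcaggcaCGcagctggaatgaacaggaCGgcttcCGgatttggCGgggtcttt

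ZNF253, ZNF682 and ZNF66 are consecutive in cluster 6 and each had its own pattern. ZNF253 lay at 0.911 and 0.857 CPM in WT and 0.477 and 0.413 CPM in A1 of experiments 10 and 11, and at 1.13 and 1.09 CPM in WT, 2.24 and 2.66 CPM in A1 and 0.673 and 0.390 CPM in A2 of experiments 15 and 16. Within experiments 15 and 16 it was thus above WT in A1 (1.14 ± 0.26, edgeR adjusted p = 0.0137) and below WT in A2 (−1.08 ± 0.31, edgeR adjusted p = 0.0250), and A2 against A1 differed by −2.22 ± 0.29 (edgeR adjusted p = 0.000170). Without either WT library of that pair both calls against WT were lost, while the difference between the clones passed under every alternative. ZNF66 lay the other way. It lay at 0.434 and 0.306 CPM in WT and 0.850 and 0.479 CPM in A1 of experiments 10 and 11. It was lowest in A1 of experiments 15 and 16, at 0.0914 and 0.138 CPM, with 0.378 and 0.273 CPM in WT and 1.12 and 0.898 CPM in A2. A2 against A1 differed by 3.11 ± 0.47 (edgeR adjusted p = 0.000621), the largest upward difference between the clones among the genes that passed.

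ZNF91 (cluster 6), with 31 fingers the most of the 200 genes counted, is known to repress SVA retrotransposons. It lay at 0.390 and 0.428 CPM in WT and 0.166 and 0.392 CPM in A1 of experiments 10 and 11. In experiments 15 and 16 it lay at 0.907 and 1.27 CPM in WT, 2.56 and 3.12 CPM in A1 and 4.35 and 4.82 CPM in A2, and these 3 groups did not overlap. The log2 fold change was 2.06 ± 0.26 in A2 (edgeR adjusted p = 6.04e-05) and 1.37 ± 0.27 in A1 (edgeR adjusted p = 0.00460), and for the mean of both clones 1.71 ± 0.24 (edgeR adjusted p = 0.000180). A2 and A1 were not shown to differ (0.69 ± 0.24, edgeR adjusted p = 0.133). The A1 call missed the threshold without WT of experiment 15 or A1 of 16 (edgeR adjusted p up to 0.0702).

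The 250 bases before ZNF91 (minus strand, chr19:23395472-23395721) are shown beside the low-CG promoters above, with 7 CG in a gene whose group means spanned a ratio of 16.5.
ZNF91: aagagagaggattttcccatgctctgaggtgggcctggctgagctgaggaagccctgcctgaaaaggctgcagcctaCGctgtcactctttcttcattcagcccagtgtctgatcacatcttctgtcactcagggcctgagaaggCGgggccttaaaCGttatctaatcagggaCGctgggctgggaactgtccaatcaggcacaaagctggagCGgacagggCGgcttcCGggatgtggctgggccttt

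ZNF429 and ZNF100, which are adjacent in cluster 6, were also higher in A2 than in WT. Both were higher in WT of experiments 15 and 16 than of 10 and 11. ZNF100 was above WT by 0.50 in A2 (edgeR adjusted p = 0.00443) and by 0.54 in A1 of experiments 15 and 16 (edgeR adjusted p = 0.00561). ZNF429 lay at 0.542 and 0.184 CPM in WT and 0.394 and 0.587 CPM in A1 of the first pair, and at 0.605 and 1.13 CPM in WT, 1.46 and 1.47 CPM in A1 and 2.98 and 3.10 CPM in A2 of the second, with 1.78 ± 0.33 for A2 against WT (edgeR adjusted p = 0.00153). Within the same cluster a run of 4, ZNF430, ZNF714, ZNF431 and ZNF708, went down between the A1 pairs by log2 fold changes of −0.71 to −0.46. In that comparison cluster 6 held 6 genes higher and 7 lower among its 21, with 20.4% and 19% of all genes called.

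In cluster 10 the genes ZNF829 and ZNF568 start 41 bases apart on opposite strands, and both rose between the pairs. The 40 bases between them (chr19:36916292-36916331, plus strand) are shown because both genes start at their ends.
ZNF568 and ZNF829: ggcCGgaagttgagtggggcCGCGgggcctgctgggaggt
ZNF829 lay at 0.564 and 0.510 CPM in WT and 0.270 and 0.326 CPM in A1 of experiments 10 and 11, and at 2.14 and 1.95 CPM in WT, 3.47 and 3.26 CPM in A1 and 3.32 and 3.73 CPM in A2 of 15 and 16. ZNF568, whose mouse counterpart represses a placental transcript of Igf2, lay at 0.239 and 0.775 CPM in WT and 0.249 and 0.457 CPM in A1 of the first pair, and at 1.74 and 2.24, 3.04 and 2.50, and 3.30 and 4.08 CPM in WT, A1 and A2 of the second. For both genes every library of experiments 15 and 16 lay above every library of 10 and 11. The WT step was 1.92 ± 0.24 for ZNF829 (edgeR adjusted p = 0.000128) and 1.96 ± 0.37 for ZNF568 (edgeR adjusted p = 0.00231), and the A1 step 3.49 ± 0.26 (edgeR adjusted p = 5.83e-08) and 2.97 ± 0.39 (edgeR adjusted p = 1.73e-05). Over the alternatives that were run, the WT step of ZNF568 ranged from 1.36 to 3.06. ZNF790, ZNF345, ZNF829 and ZNF568 formed a run of 4 neighbours over 0.18 Mb that were higher in A1 of the second pair. Within experiments 15 and 16 ZNF829 was higher in A2 by 0.79 ± 0.20 (edgeR adjusted p = 0.0130) and in A1 by 0.72 ± 0.20 (edgeR adjusted p = 0.0364, lost in 8 of 16 alternatives, DESeq2 and limma-trend among them). For ZNF568 the A2 difference of 0.88 ± 0.30 missed the threshold (edgeR adjusted p = 0.0570). The genes beyond the run, ZNF420 and ZNF585A, had ratios of group means of 1.12 and 1.19.

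Clusters 3 and 13 gave 2 further genes with a ratio of at least 4. ZNF700 (cluster 3) was highest in the first pair, at 7.09 and 5.57 CPM in WT and 10.5 and 8.20 CPM in A1. Experiments 15 and 16 gave 3.50 and 2.65 CPM in WT, 1.44 and 1.68 CPM in A1 and 4.40 and 5.37 CPM in A2, so A1 was under and A2 over WT, without overlap. The log2 fold changes were −0.97 ± 0.22 in A1 (edgeR adjusted p = 0.0112) and 0.68 ± 0.19 in A2 (edgeR adjusted p = 0.0231), and the clones differed by 1.65 ± 0.21 (edgeR adjusted p = 0.000121). The A1 effect changed between the pairs by −1.54 ± 0.28 (edgeR adjusted p = 0.00768, lost without A1 of 10 or of 15). Its neighbours ZNF441 and ZNF440 were also higher in A2, and ZNF442 of the same cluster rose there by 1.69 ± 0.27 (edgeR adjusted p = 0.000403), from 0.605 and 0.741 to 2.35 and 2.05 CPM. ZNF233 (cluster 13) lay at 0.480 and 0.184 CPM in A1, 0.807 and 0.799 CPM in WT and 1.57 and 1.66 CPM in A2 of experiments 15 and 16. The clones differed by 2.27 ± 0.40 (edgeR adjusted p = 0.00187), and by 1.75 to 3.12 over the alternatives that were run. Neither clone passed against WT (edgeR adjusted p = 0.0807 for A1 and 0.0569 for A2).

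Between the pairs 2 of the 52 genes of cluster 17 were higher and 9 lower in WT, and 4 higher and 17 lower in A1. Over all genes 8.61% were higher and 7.74% lower in WT, and 20.4% and 19% in A1. Among the cluster 17 genes called higher in A2, ZNF471 had the largest change. ZNF471 lay at 1.91, 1.77, 2.39 and 2.18 CPM in the WT libraries of experiments 10, 11, 15 and 16, and at 1.76, 1.94, 4.02 and 4.04 CPM in those of A1. A2 had 4.28 and 4.41 CPM. Both clones were higher than WT in experiments 15 and 16, by 0.82 ± 0.17 in A1 (edgeR adjusted p = 0.00835) and 0.93 ± 0.17 in A2 (edgeR adjusted p = 0.00153). The A1 call of ZNF471, like each of the 10 A1 calls in experiments 15 and 16 that the naming rule gave, was lost without WT of experiment 15 and without A1 of experiment 16.

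The 200 genes with a coding sequence in GENCODE encode 1 to 31 zinc fingers, with a median of 12, counted by a letter pattern in the translated sequence. A KRAB A box pattern was matched in 145 and not in 55. The match is of letters and not a domain call, and in cluster 13 it matched 2 of 24 genes, so most of that cluster stands among the 55. Cluster 13 had 1 gene called in A2 against WT, and its part in the shares below was not tested. In A2 against WT 39 of the 145 (26.9%) and 9 of the 55 (16.4%) were called, with 16.4% of all genes called. For A1 against WT of experiments 15 and 16 the numbers were 12 (8.28%) and 1 (1.82%), with 8.24% of all genes called. Between the WT pairs the order was the other way, with 21 (14.5%) and 13 (23.6%), on either side of the 16.4% of all genes. A ratio of at least 4 was found in 13 (8.97%) and 2 (3.64%), and these shares are descriptions with no test.

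RefSeq promoter entries were found for 180 of the 202 genes. The 250 bases before the start held a median of 17 CG, against 11 in the 27305 promoters of the table, and 14.5 in the 12 genes with a ratio of at least 4 that had an entry (5 to 26). The ETS sequence CCGGAAG, searched on both strands, was present in 54 of the 180 (30.0%) and in 9.07% of all promoters. It was present in 5 of the 12, among them ZNF528 (cCGgaag on the printed strand, CG in capitals). ZNF829 and ZNF568 were both counted, for the same site in the stretch between them. The SP1 sequence GGGCGG was present in 62.2% against 43.9% of all promoters, the YY1 sequence AAGATGGC in 9 of the 180 against 1.36% of all promoters, the NRF1 sequence GCATGCGC in 3.89% against 2.94% and the cyclic AMP response sequence TGACGTCA in 3.89% against 1.84%. The ETS, SP1, NRF1 and cyclic AMP response sequences each contain CG, and the part of the CG content in their shares was not tested. Of the 12, ZNF285 alone held the NRF1 sequence, and 0 held the YY1 or the cyclic AMP response sequence.

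Of 36 genes on a list of the KAP1, HUSH and DNA methylation machinery written by hand, 34 were listed in the counts. The list also holds TET1, TET2 and TET3 and zinc finger genes such as ZNF445 and ZNF274, and ZNF274 is also among the 202. In A1 against WT of experiments 15 and 16, 2 were higher and 3 lower (14.7% called, against 8.24% of all genes), and in A2 3 were higher and 5 lower (23.5%, against 16.4%). Between the pairs 9 of the 34 were called in WT (26.5%, against 16.4% of all genes) and 19 in A1 (55.9%, against 39.4%). TRIM28, the KRAB co-repressor, lay at 689 and 666 CPM in WT, 527 and 526 CPM in A1 and 609 and 538 CPM in A2 of experiments 15 and 16, a difference on the log2 scale of −0.36 ± 0.07 in A1 (edgeR adjusted p = 0.00442) and −0.24 ± 0.07 in A2 (edgeR adjusted p = 0.0269). UHRF1, which guides DNMT1 to hemimethylated DNA, fell by 0.39 ± 0.07 in A1 (edgeR adjusted p = 0.00363) and by 0.42 ± 0.07 in A2 (edgeR adjusted p = 0.000825). DNMT1, the maintenance DNA methyltransferase, fell by 0.27 ± 0.07 in A1 (edgeR adjusted p = 0.0188) and by 0.20 ± 0.07 in A2 (edgeR adjusted p = 0.0460). CBX5, the gene of heterochromatin protein HP1 alpha, rose by 0.29 ± 0.07 in A1 (edgeR adjusted p = 0.0186) and 0.30 ± 0.07 in A2 (edgeR adjusted p = 0.00866). TRIM24, a relative of TRIM28, rose by 0.22 ± 0.07 in A1 (edgeR adjusted p = 0.0448) and differed by 0.14 ± 0.07 in A2, which missed the threshold (edgeR adjusted p = 0.170).

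Between the WT pairs, with no clone involved, CBX5 rose by 0.42 ± 0.07 (edgeR adjusted p = 0.00103), TRIM24 rose by 0.26 ± 0.07 (edgeR adjusted p = 0.0141), DNMT1 fell by 0.45 ± 0.07 (edgeR adjusted p = 0.000434) and UHRF1 fell by 0.23 ± 0.07 (edgeR adjusted p = 0.0396). TRIM28 did not pass there (edgeR adjusted p = 0.154).

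SETDB1 did not pass in either clone (edgeR adjusted p = 0.167 and 0.355). HELLS, a chromatin remodeller for DNA methylation, and MORC2, a HUSH partner, were lower in A2 than in WT and than in A1. ZNF274, a cluster 17 gene and KRAB protein that recruits SETDB1, was higher in A2 than in both, and EHMT1, a histone methyltransferase, was higher in A2 than in WT and was not shown to differ from A1 (edgeR adjusted p = 0.290). TRIM28, UHRF1 and DNMT1 lie on chromosome 19, where 632 of the 768 other genes had a negative log2 fold change in A1 and 646 in A2. For A1 of experiments 10 and 11 edgeR called 0 of the 34 (3 at an unadjusted p under 0.05), and DESeq2 and limma-trend called 0. The part of these genes in the changes of the ZNF genes was not tested.

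The ZNF genes are close relatives, and reads from identical stretches can be given to the wrong gene. Of the 202 genes, 42 share exon bases with another listed gene in GENCODE. Among the 15 with a ratio of at least 4 there were 4, with 0.485% of exon bases shared in ZNF28, 1.00% in ZNF577, 4.20% in ZNF233 and 4.57% in ZNF808. How reads with several matches were handled and whether strand was used in counting were not given in the sources used here.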

How the data were processed

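RNA sequencing was done on 10 libraries of spheroids. Per the study's methods the reads were from stranded mRNA libraries and genes with a count of 0 in any library were removed, and the submitters' processing notes name HISAT2, StringTie and GRCh38. The authors deposited raw counts per NCBI gene, and the deposited counts were used with no further filter. The strand setting in counting was not given in the sources used here. Library totals ranged from 40077369 to 51311482 counts, and 0 columns were left unused.

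Counts were scaled by TMM (factors 0.976 to 1.04) and tested with edgeR 4.0.16 (R 4.3.3; quasi-likelihood, robust) over all 13920 genes and 5 groups, with Benjamini-Hochberg adjustment and a threshold of 0.05. Alternatives were RLE scaling, DESeq2 1.42.0, limma-trend (limma 3.58.1), a mean count of at least 10, experiments 15 and 16 alone, the experiment as a block, the 4 KO libraries as 1 group, and each library left out. Libraries of the same group differed by more than sampling noise (chi-square per degree of freedom of 6.74 or more). Positions were found for 13885 genes. Fingers and KRAB boxes were counted in GENCODE coding sequences by letter patterns, and promoters came from RefSeq.

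The members and lists were chosen with earlier results of these data known. Genes were named by rule: for each comparison up to 6 in each direction by log2 fold change (4 for A2 against A1 and for the change of the A1 effect) among those past the threshold whose libraries did not overlap, overlap being allowed for the change of the A1 effect, plus genes that switch and co-repressors called in a clone. Neighbours of these genes and members of runs were named after their values were seen.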

Additional observations from a re-analysis of the deposited data

Results flagged for a closer look

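The effect of clone A1 against WT differed between experiments 10 and 11 and experiments 15 and 16 by the interaction test of edgeR for 5 named genes. The change was 2.80 on the log2 scale for ZNF28, 2.46 for ZNF285, 2.12 for ZNF253, 2.10 for ZNF528 and −1.54 for ZNF700. In the first 4, A1 lay below WT in experiments 10 and 11 and above it in 15 and 16, and in ZNF700 the order was the reverse. Of the 5, ZNF28 passed in A1 against WT of experiments 10 and 11, and the edgeR adjusted p there was 0.0858 for ZNF285, 0.347 for ZNF253, 0.320 for ZNF528 and 0.312 for ZNF700. The ZNF28 change passed under every alternative, and the others were lost without at least 2 of the libraries, at edgeR adjusted p-values of up to 0.0852 for ZNF285, 0.0634 for ZNF253, 0.140 for ZNF528 and 0.0661 for ZNF700. What differed between the pairs of experiments was not tested.

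One WT library stood away from the other WT libraries for ZNF540 (cluster 10), with 1.84 CPM in experiment 15 against 1.27 to 1.33 CPM in the others. A2 had 0.650 and 0.859 CPM, and its call against WT (edgeR adjusted p = 0.0266) was lost without that library and without either A2 library. This was 1 of 72 groups of 4 libraries examined over 36 genes, and chance marks about 1 in 20.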

How the results depend on the processing

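Numbers of the 202 genes called depended on single libraries, and are given without the share of all genes called under the same fit. With each library left out in turn, A1 against WT in experiments 15 and 16 gave 1 to 33, A2 against WT 22 to 57, A1 against WT in experiments 10 and 11 0 to 19, A2 against A1 10 to 25, the change of the A1 effect 1 to 19, the WT pairs 11 to 44 and both clones 10 to 55 genes, and 3 to 7 genes switched. With experiments 15 and 16 alone, A1 against WT gave 27 and A2 against A1 25. With the 4 KO libraries as 1 group both clones gave 19, of which 18 were among the main 38. Limits of 0.5 and 2 CPM gave 8 switches and a lower limit of 0.1 CPM gave 0. A gap of 2 Mb gave 8 clusters.

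Samples of the same experiment number shared only weak deviations (correlations of 0.0844 in experiments 10 and 11 and 0.103 to 0.151 in 15 and 16), so the pairing was not used. With the experiment as a replicate block A1 against WT gave 37 genes in experiments 15 and 16 (15 higher, 22 lower) and 13 in 10 and 11, A2 against WT 67, A2 against A1 29, the change of the A1 effect 16 (7 upward, 9 downward) and both clones 59 (29 higher, 30 lower), and the A1 effects of ZNF528 in experiments 15 and 16 (0.73, log2) and ZNF285 in 10 and 11 (−1.99) passed. The block could not be fitted to the steps between pairs.

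Of 1280 alternative values for 83 named gene comparisons, 1133 kept direction and side of the threshold, 140 fell short of it, 7 passed newly and 0 reversed. The cause of these moves was not tested. Genes near 0.25 CPM rest on about 10 counts a library, and 2 libraries a group limit the precision.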
